A study of Mus musculus with 12 samples.

Results

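The genes described here are the nuclear-encoded subunits of the respiratory chain, measured as messenger RNA in mouse aortic valves. They were chosen by symbol: the names that start Ndufa, Ndufb, Ndufc, Ndufs or Ndufv with a number, Sdha to Sdhd, the Uqcr names, Cox4 to Cox8, Cycs and the Atp5 names in the authors' deposited table of results. That choice gave 85 genes of the 20620 in the count table. Of these, 36 belong to complex I, 4 to complex II, 8 to complex III, 18 to complex IV (with Ndufa4 and Ndufa4l2, counted there) and 18 to complex V, and Cycs encodes cytochrome c. Within the authors' table the choice was made by name. That table holds no gene under some minimum mean signal, so measured level limited the choice to that extent.

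The study collected valves at postnatal day 10 from wildtype mice, from mice labelled Notch1+/-;Gata5+/- and from mice labelled Notch1+/-;Gata5-/-. Notch1 encodes a receptor of signalling between neighbouring cells, and Gata5 encodes a DNA-binding regulator of heart development. Since the mutant groups share the Notch1+/- label, they are named below as Gata5+/- and Gata5-/-, by the label in which they differ. Every group has 4 libraries, and every library is a pool of 3 valves, so an animal's own value cannot be seen. The labels name neither the strain nor a tissue restriction of the alleles.

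The respiratory chain sits in the inner mitochondrial membrane. Complexes I and II take electrons from NADH and succinate, complex III passes them to cytochrome c, complex IV hands them to oxygen, and complex V makes ATP from the proton gradient that the pumping complexes build. Most subunits are encoded in the nucleus and a few in mitochondrial DNA, and heart muscle, which lies against the valve in a dissection, is among the tissues richest in them. Some complex IV subunits exist as paired genes, one expressed in most tissues and the other in muscle, lung or other restricted places.

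Totals ran from 13866604 to 25059653 counts per library, so that 3 counts, the limit that a count of 0 allows, correspond to 0.120 to 0.216 CPM (counts scaled by TMM to the same library total), and this covers counting error only. Gata5 had 0 counts in the 4 libraries labelled Gata5-/- and 15 to 112 counts in the other libraries. It was at 0.845 to 2.91 CPM in wildtype and 0.728 to 5.66 CPM in the Gata5+/- libraries, so its level does not mark the Gata5+/- label. Notch1 was at 98.6 to 159 CPM in wildtype, 148 to 194 CPM in the Gata5+/- libraries and 153 to 213 CPM in the Gata5-/- libraries, so its level does not mark the Notch1+/- label. Valve interstitial markers were high in every library, with all 12 of the list measured and a summed level of 28351 to 37402 CPM. Heart muscle markers were also present in every library: all 25 were measured, and they summed to 28564 to 62836 CPM in wildtype, 35443 to 69397 CPM in the Gata5+/- libraries and 47121 to 67657 CPM in the Gata5-/- libraries. A pair of libraries stood apart: wildtype replicate 2 had the lowest heart muscle sum, and Gata5-/- replicate 3 had 6000 genes at 0, against 1017 to 3208 in the others. In pooled tissue, fewer cells of a type and less RNA per cell cannot be told apart.

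The start regions of these genes were searched for CpG pairs and for motifs of regulators of mitochondrial genes. RefSeq promoter windows of the GRCm38.p6 build ran from 250 bases before to 50 after the gene start. They were matched by gene identifier, or failing that by symbol or synonym, for 68 of the 85 genes. The median window held 19 CpG pairs, against 7 over all 27025 windows and 13 over the 17492 windows of protein-coding genes. The motif GCGCATGCG, which NRF1 (nuclear respiratory factor, a regulator of mitochondrial genes) is known to bind, was found on either strand in 9 of 68 windows (13.2%), compared with 1.81% of all windows and 2.41% of coding ones. CCGGAAG, an ETS motif of the kind GABPA binds, was in 15 windows (22.1%, against 9.12% of all and 11.9% of coding). AAGATGGCG, a YY1 motif, was in 6 (8.82%, against 1.49% of all and 1.94% of coding), and TCAAGGTCA, a motif of the oestrogen-related receptors, was in Atp5mc3 and Sdhd (2.94%, against 0.407% and 0.332%). TATAAA, the core of the TATA box, was in 6 windows (8.82%, against 14.2% and 13.3%). These motifs do not contain one another, the shares were not tested, and a match describes letters, not binding.

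Shown first, as examples of the NRF1 and ETS motifs, are the 120 bases before the start of Cycs and of Uqcrh, the hinge subunit of complex III that helps dock cytochrome c. Sequences are written 5′ to 3′ on the gene's strand, in lower case, with the motif in capitals.
Cycs (chr6:50566570-50566689, minus strand): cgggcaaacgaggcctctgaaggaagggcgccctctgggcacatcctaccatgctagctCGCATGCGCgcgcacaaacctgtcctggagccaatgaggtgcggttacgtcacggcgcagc
Uqcrh (chr4:116075071-116075190, minus strand): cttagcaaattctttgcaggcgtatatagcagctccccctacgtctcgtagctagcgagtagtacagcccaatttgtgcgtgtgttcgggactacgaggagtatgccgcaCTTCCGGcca
The NRF1 motif of Cycs begins at position -61 from the start and reads on the opposite strand. The ETS motif of Uqcrh begins at -10, also on the opposite strand.

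The paired complex IV genes shown here were picked because they differ in these windows. Cox8b and Cox7a1 are the forms known from heart and skeletal muscle, and Cox8a and Cox7a2 are their widely expressed partners. The same 120 bases are given for each, with every CpG in capitals, since the paralogs differ in that feature.
Cox8b (chr7:140900447-140900566, minus strand): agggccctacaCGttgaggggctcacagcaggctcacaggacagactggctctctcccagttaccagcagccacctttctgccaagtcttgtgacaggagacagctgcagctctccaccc
Cox8a (chr19:7217617-7217736, minus strand): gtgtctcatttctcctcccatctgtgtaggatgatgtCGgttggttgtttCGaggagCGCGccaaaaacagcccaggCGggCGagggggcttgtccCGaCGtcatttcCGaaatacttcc
Cox7a1 (chr7:30184051-30184170, plus strand): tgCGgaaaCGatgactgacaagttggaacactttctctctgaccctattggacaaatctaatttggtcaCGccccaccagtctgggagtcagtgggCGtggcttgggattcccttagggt
Cox7a2 (chr9:79759854-79759973, minus strand): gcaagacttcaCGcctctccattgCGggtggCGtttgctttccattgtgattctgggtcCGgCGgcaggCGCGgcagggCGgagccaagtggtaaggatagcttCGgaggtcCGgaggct
In the 120 bases Cox8b has 1 CpG and Cox8a has 9, and Cox7a1 has 4 and Cox7a2 has 10. Over the 300 bases of the whole window the counts were 2 and 19 for the first pair and 7 and 20 for the second. Of the other pairs, only Cox6b2 and Cox6b1 had windows for both genes, with 10 and 17 CpG pairs. Cox8b also holds a TATAAA match in the whole window, and Cox8a an ETS match.

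All 85 genes passed the filter on low counts and were tested among 19346 genes. Levels per length were compared as CPM per kilobase of transcript, the mean over 12 libraries, for the 84 genes with an annotated length. Cox4i1, the widely expressed form of the subunit that binds ATP in complex IV, was the highest at 755 CPM per kilobase. Atp5f1b, the catalytic beta subunit of ATP synthase, followed at 615, then Cox7c at 561, Atp5mk at 450.6 and Atp5pd at 428. The median per complex was 74.97 for complex I (35 genes), 96.1 for complex II, 135 for complex III, 135 for complex IV and 156 for complex V. Complex IV also held 3 of the 4 lowest genes, all restricted paralogs: Ndufa4l2 at 1.99, Cox6b2 at 6.35 and Cox4i2 at 8.57 CPM per kilobase.

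No subunit gene was called in any of the 3 comparisons of genotypes. With edgeR's quasi-likelihood test and Benjamini-Hochberg adjustment over all genes, the count at an adjusted p under 0.05 was 0 of 85 for Gata5-/- libraries against wildtype, where 0.0258% of all genes were called. It was 0 of 85 for Gata5+/- libraries against wildtype and for Gata5-/- libraries against Gata5+/- libraries, where the share of all genes called was 0.0 percent in each. At an unadjusted p under 0.05 the counts were 0, 0 and 3 of 85, beside 5.4%, 1.25% and 3.18% of all genes. DESeq2 and limma-voom also called 0 subunit genes in each comparison, with 0, 0 and 4 at an unadjusted p under 0.05 by DESeq2 and 1, 0 and 2 by limma-voom. The authors' deposited table, which does not name its comparison, marked none of the 85 as changed by its own cutoffs, which differ from those here. Its lowest adjusted p by DESeq2 was 0.806, for Atp5mc2. Its log2 fold changes lay close to those found here for Gata5-/- libraries against wildtype. For Ndufc1 it gave 0.023, where the fit here gave -0.008 in that comparison. The fit gave -0.583 for Gata5+/- libraries against wildtype and 0.575 between the mutant groups. The common biological coefficient of variation over all genes was 0.68.

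The groups of 4 libraries overlapped for nearly every gene. Only Atp5mc2 had no overlap between Gata5-/- and wildtype libraries, beside 2.93% of all genes. No subunit gene was free of overlap in the other comparisons, beside 2.24% of all genes for Gata5+/- libraries against wildtype and 2.73% for Gata5-/- libraries against Gata5+/- libraries.

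Below the threshold, the signs of the log2 fold changes leaned to one side without a large median. For Gata5-/- libraries against wildtype, 60 of 85 were positive with a median of 0.08 and a range of -0.60 to 0.54, while 46.1% of all genes were positive and their median was -0.035. For Gata5+/- libraries against wildtype, 33 of 85 were positive with a median of -0.03, beside 50.3% and 0.002 over all genes. For Gata5-/- libraries against Gata5+/- libraries, 66 of 85 were positive with a median of 0.15, beside 44.6% and -0.04 over all genes. These comparisons share libraries, so their signs are not separate evidence. Single libraries decided the sign of both medians against wildtype. The median between the mutant groups stayed positive with any library left out, at 0.032 to 0.275. Without wildtype replicate 2 the first median was -0.085 with 26 of 85 positive and the second was -0.22 with 4 positive. Without wildtype replicate 3 they were 0.25 with 77 positive and 0.13 with 67 positive. Without Gata5-/- replicate 4 the first median was -0.01 with 38 positive and the median against Gata5+/- libraries was 0.03 with 48 positive. Without Gata5+/- replicate 4 the second median was -0.19 with 4 positive and the last was 0.28 with 81 positive. With the level of the heart muscle markers as a covariate, the 3 medians were -0.015, -0.13 and 0.11, with 37, 11 and 62 positive.

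**Figure D1:**
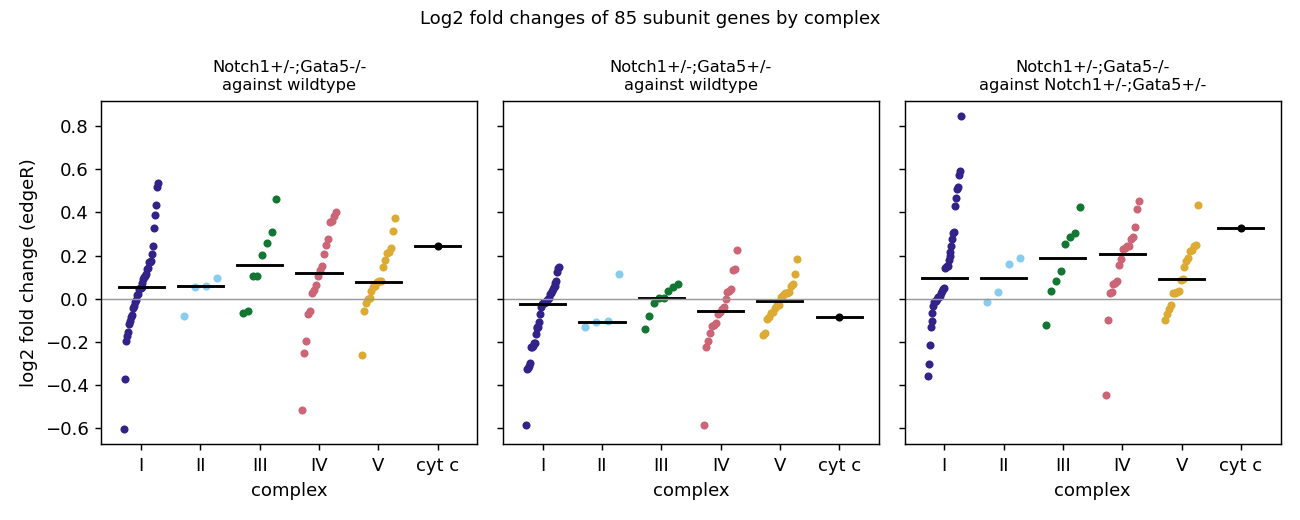
Log2 fold change of each of the 85 subunit genes (vertical axis, edgeR) by complex (horizontal axis) in the 3 comparisons of genotypes; each point is a gene and each bar the median of a complex. The medians of complexes I to V lie between -0.11 and 0.21, and no gene passed the test in any panel.

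Complex I oxidizes NADH, and its Ndufs and Ndufv core subunits carry the flavin and the iron-sulphur clusters. Its 36 genes had a median log2 fold change of 0.05 for Gata5-/- libraries against wildtype (23 positive), -0.02 for Gata5+/- libraries against wildtype (12 positive) and 0.10 between the mutant groups (25 positive). Ndufs1, the largest core subunit, was at 283, 167, 377 and 352 CPM in wildtype replicates 1 to 4, at 216, 311, 252 and 385 CPM in the Gata5+/- libraries and at 239, 309, 262 and 384.5 CPM in the Gata5-/- libraries. The same replicates were low or high for most subunit genes, and the groups overlapped throughout. Its log2 fold change was 0.02 (SE 0.249) for Gata5-/- libraries against wildtype, with an adjusted p of 0.9997 by edgeR. Ndufv1 and Ndufv2, core subunits of the NADH-oxidizing part, had log2 fold changes of 0.04 and 0.05 in that comparison.

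Ndufs7 and Ndufs8, which hold the iron-sulphur clusters nearest to ubiquinone and in the connecting arm, had opposite signs without passing the test. Ndufs7 was at 19.0, 9.29, 18.1 and 19.2 CPM in wildtype, at 17.1, 15.9, 15.3 and 16.8 CPM in the Gata5+/- libraries and at 11.01, 13.92, 4.34 and 21.4 CPM in the Gata5-/- libraries. Its value in Gata5-/- replicate 3 was the lowest of the 12. Ndufs8 was at 34.5, 13.1, 42.5 and 41.3 CPM in wildtype, at 35.4, 33.1, 24.6 and 31.9 CPM in the Gata5+/- libraries and at 25.1, 53.4, 49.4 and 49.9 CPM in the Gata5-/- libraries. Here 3 of the 4 Gata5-/- libraries exceeded every other library, and replicate 1 of that group did not. Relative to wildtype the log2 fold changes were -0.37 (SE 0.358) for Ndufs7 and 0.44 (SE 0.300) for Ndufs8, both with an adjusted p of 0.9997 by edgeR. Ndufs3, another core subunit, had -0.19 (SE 0.313).

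Among the accessory subunits, Ndufa7 had the smallest p of complex I for Gata5-/- libraries against wildtype. It was at 36.8, 16.4, 40.5 and 26.7 CPM in wildtype, at 21.8, 24.5, 19.2 and 32.3 CPM in the Gata5+/- libraries and at 29.2, 21.5, 7.85 and 20.5 CPM in the Gata5-/- libraries. The lowest library was again Gata5-/- replicate 3, and wildtype replicate 2 lay below most mutant libraries. Its log2 fold change was -0.60 (SE 0.328, unadjusted p = 0.0811, adjusted p = 0.9997 by edgeR). Ndufc1 was the first of complex I for Gata5+/- libraries against wildtype. It was at 25.4, 13.94, 32.8 and 25.3 CPM in wildtype, at 17.7, 12.1, 14.5 and 20.8 CPM in the Gata5+/- libraries and at 9.18, 26.7, 32.5 and 28.7 CPM in the Gata5-/- libraries. That difference was -0.58 on the log2 scale (SE 0.325, unadjusted p = 0.0868, adjusted p = 1 by edgeR).

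Between the mutant groups, 3 genes had an unadjusted p under 0.05, all higher in the Gata5-/- libraries, and the adjusted p of each was 1 by edgeR. Ndufa3 was at 53.2, 51.4, 45.9 and 72.2 CPM in the Gata5+/- libraries and at 70.9, 61.7, 104 and 71.4 CPM in the Gata5-/- libraries, with wildtype at 63.3, 45.7, 76.4 and 59.6 CPM. Replicate 4 of the Gata5+/- group lay within the range of the other mutant group, and replicate 3 of the Gata5-/- group lay above all libraries. Its log2 difference between the mutant groups was 0.47 (SE 0.189, unadjusted p = 0.021). Ndufa2, named after its values were seen, differed by 0.59 (SE 0.253, unadjusted p = 0.030), and its highest library was also replicate 3 of the Gata5-/- group, at 103 CPM against 32.4 to 60.3 CPM in the others. The remaining gene was Atp5mc2, described with complex V.

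Complex II, succinate dehydrogenase, is encoded in the nucleus throughout and also works in the citric acid cycle. Sdha, its flavoprotein, was at 419, 309, 484 and 559 CPM in wildtype, at 349, 446, 465 and 654 CPM in the Gata5+/- libraries and at 419, 487, 376 and 609.7 CPM in the Gata5-/- libraries. The ranges overlapped, with replicate 4 the highest library in each group. Its log2 fold change was 0.10 (SE 0.207) for Gata5-/- libraries against wildtype and 0.11 (SE 0.207) for Gata5+/- libraries against wildtype. The iron-sulphur subunit Sdhb and the membrane anchors Sdhc and Sdhd lay between -0.08 and 0.06 in the first of these and between -0.13 and -0.10 in the second. Sdhd had the smallest p of complex II for Gata5+/- libraries against wildtype, where its log2 fold change was -0.13 (SE 0.209, adjusted p = 1 by edgeR), and between the mutant groups, where it was 0.19 (SE 0.209, adjusted p = 1 by edgeR). All 4 genes had an adjusted p of at least 0.9997 by edgeR in each comparison.

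Complex III, the cytochrome bc1 complex, had the median log2 fold changes 0.16, 0.003 and 0.19 in the 3 comparisons. Uqcrc2, a core protein and the complex's most abundant gene per length at 199 CPM per kilobase, was at 334, 246, 457 and 423 CPM in wildtype. It was at 286, 366, 311 and 417 CPM in the Gata5+/- libraries and at 302, 428, 474 and 479 CPM in the Gata5-/- libraries. The highest 2 values belonged to Gata5-/- libraries, yet replicate 1 of that group lay below most of the other libraries. The log2 difference between the mutant groups was 0.29 (SE 0.184, adjusted p = 1 by edgeR). Uqcrb, which sits at the quinone site, was at 56.1, 37.1, 79.1 and 70.1 CPM in wildtype and at 56.4, 66.7, 68.7 and 108 CPM in the Gata5-/- libraries, a log2 fold change of 0.31 (SE 0.254). Uqcrc1, the other core protein, had -0.07, and Uqcrfs1, the Rieske iron-sulphur protein, had 0.11 against wildtype.

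Cytochrome c carries electrons from complex III to complex IV. Cycs was at 119.9, 66.7, 189 and 145 CPM in wildtype, at 93.8, 146, 107 and 143 CPM in the Gata5+/- libraries and at 122, 141, 149 and 204 CPM in the Gata5-/- libraries. Wildtype held both the lowest library and the second highest, so the groups overlapped. The log2 fold change was 0.24 (SE 0.270) for Gata5-/- libraries against wildtype and 0.33 (SE 0.271) against Gata5+/- libraries, with an adjusted p of 0.9997 and 1 by edgeR. Cycs made up 0.98% to 1.42% of the summed CPM of the 85 genes.

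Complex IV, cytochrome c oxidase, had median log2 fold changes of 0.12 (13 of 18 positive), -0.055 (6 of 18) and 0.21 (16 of 18). Cox4i1 was at 592, 356, 756 and 696 CPM in wildtype, at 369.5, 566, 465 and 753 CPM in the Gata5+/- libraries and at 518, 574, 532 and 658 CPM in the Gata5-/- libraries. The Gata5-/- libraries lay inside the wildtype range. Its log2 fold change was -0.07 (SE 0.235). Cox5a, which joins the complex early with Cox4i1, and Cox5b, which joins later, had 0.03 (SE 0.343) and 0.25 (SE 0.286), and Ndufa4, now counted with this complex, had 0.35 (SE 0.326), all with an adjusted p of 0.9997 by edgeR.

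The paired genes of complex IV give a readout within a library that needs no scaling between libraries. The log2 ratio of the restricted to the widely expressed gene (CPM with 0.5 added) was compared for 6 pairs and 3 comparisons by a two-sided exact permutation test, whose smallest possible p with 4 against 4 is 0.0286. None of the 18 differences passed, and the smallest adjusted p was 0.910. A single difference at the smallest possible p would have an adjusted p of 0.514 over these 18 tests and could not pass, so the tests do not show that the ratios are alike. Per length, the muscle form exceeded its partner in all 12 libraries for Cox8b over Cox8a (median ratio 6.27) and in 11 of 12 for Cox7a1 over Cox7a2 (median ratio 1.57). Cox6a2 exceeded Cox6a1 in 6 of 12, with a median ratio of 1.01. For Cox4i2, Ndufa4l2 and Cox6b2 the widely expressed partner was higher in all 12 libraries, with median ratios of 0.0109, 0.00688 and 0.0302.

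Cox7a1 and Cox7a2 came closest to a difference between genotypes. Cox7a1 was at 69.6, 34.5, 101 and 78.7 CPM in wildtype and at 48.1, 64.7, 45.2 and 89.1 CPM in the Gata5-/- libraries. Cox7a2 was at 80.9, 33.2, 89.9 and 69.2 CPM in wildtype and at 77.0, 90.3, 107 and 86.9 CPM in the Gata5-/- libraries. The log2 ratio was -0.22, 0.06, 0.16 and 0.18 in wildtype, -0.54, -0.04, 0.19 and -0.15 in the Gata5+/- libraries and -0.67, -0.48, -1.23 and 0.03 in the Gata5-/- libraries. So 3 of the 4 Gata5-/- libraries lay below every wildtype library, and replicate 4 lay among them. The means differed by -0.64 (exact permutation p = 0.0571, adjusted p = 0.910), and leaving out any single library kept the sign, with values from -0.84 to -0.42. Tested singly, Cox7a1 had a log2 fold change of -0.20 (SE 0.302) and Cox7a2 of 0.40 (SE 0.236), with an adjusted p of 0.9997 by edgeR for both. Cox7a2l, a related protein that links complexes III and IV into supercomplexes, had -0.06 (SE 0.238).

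Cox8b was at 142, 65.8, 219 and 136 CPM in wildtype, at 94.5, 135, 108 and 180.5 CPM in the Gata5+/- libraries and at 109, 168, 142 and 169 CPM in the Gata5-/- libraries. Cox8a spanned less, from 24.97 to 40.03 CPM in wildtype, 28.3 to 42.2 CPM in the Gata5+/- libraries and 34.7 to 40.6 CPM in the Gata5-/- libraries. The log2 fold changes for Gata5-/- libraries against wildtype were 0.06 (SE 0.320) for Cox8b and 0.21 (SE 0.197) for Cox8a, both with an adjusted p of 0.9997 by edgeR. Their mean log2 ratios were 2.03 ± 0.461, 1.85 ± 0.251 and 1.97 ± 0.273 (SD, n = 4 each) in these groups, a spread larger than any difference between them.

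Cox6a1 and Cox6a2 parted most in a single library. Cox6a1 was at 32.4, 22.2, 32.9 and 27.3 CPM in wildtype and at 26.8, 23.4, 7.92 and 21.9 CPM in the Gata5-/- libraries, and Cox6a2 was at 36.3, 15.9, 42.1 and 36.6 CPM and at 20.7, 31.0, 58.5 and 35.2 CPM in the same groups. Replicate 3 of the Gata5-/- group had the lowest Cox6a1 and the highest Cox6a2 of the 12 libraries, with a log2 ratio of 2.81. Gata5+/- replicate 2 parted the same way to a lesser degree, at 19.2 CPM of Cox6a1 and 41.4 CPM of Cox6a2. Its log2 ratio was 1.09, while the other Gata5+/- libraries ran from -0.314 to -0.07. For Gata5-/- libraries the mean log2 ratio differed by 0.76 from wildtype (exact permutation p = 0.343, adjusted p = 0.910) and by 0.12 without replicate 3 of that group. Cox6a1 alone had a log2 fold change of -0.52 (SE 0.303, unadjusted p = 0.102, adjusted p = 0.9997 by edgeR).

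The other restricted genes were low, and Ndufa4l2 and Cox6b2 were near the detection limit in some libraries. Cox4i2, the form known from lung and from oxygen-sensing cells, was at 4.003, 5.12, 4.91 and 7.56 CPM in wildtype, 6.61, 7.13, 8.72 and 2.82 CPM in the Gata5+/- libraries and 3.42, 4.92, 13.1 and 6.77 CPM in the Gata5-/- libraries. Its log2 fold change for Gata5-/- libraries against wildtype was 0.38 (SE 0.524, adjusted p = 0.9997 by edgeR). Ndufa4l2, known as a hypoxia-induced and pericyte-rich relative of Ndufa4, reached at most 4.54 CPM, in Gata5-/- replicate 1, and had 0 counts in replicates 2 and 3 of that group and 1 count in wildtype replicate 2. Cox6b2, known best from testis, was at 1.12 to 8.68 CPM except for 0 counts in Gata5-/- replicate 3. Their ratios to Cox4i1, Ndufa4 and Cox6b1 had exact permutation p-values between 0.429 and 0.943. Pericyte markers summed to 1304 to 1839 CPM over all libraries, with 10 of 10 measured, though Higd1b and Vtn had 0 counts in some library.

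**Figure D2:**
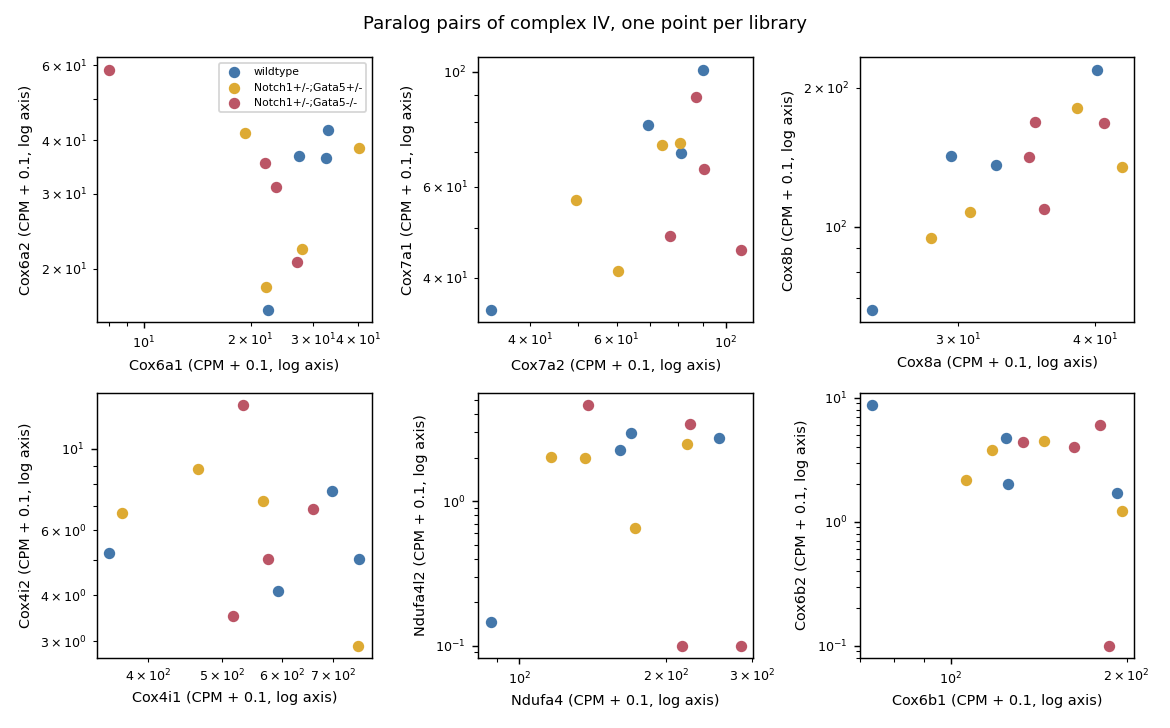
Each panel plots the restricted gene of a complex IV pair (vertical axis, CPM + 0.1, log scale) against its widely expressed partner (horizontal axis, CPM + 0.1, log scale), with a point per library coloured by genotype. Gata5-/- replicate 3 stands at the upper left of the Cox6a panel (7.92 CPM of Cox6a1 and 58.5 CPM of Cox6a2), and 3 of the 4 Gata5-/- libraries lie toward the lower right of the Cox7a panel.

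Complex V, ATP synthase, contributed most RNA, 33.9% to 36.9% of the summed CPM of the 85 genes in every library. Its median log2 fold changes were 0.08 (14 of 18 positive), -0.01 (9 of 18) and 0.09 (14 of 18). Atp5f1b was at 1069, 763, 1423 and 1503 CPM in wildtype, at 823, 1217, 1078 and 1692 CPM in the Gata5+/- libraries and at 947.5, 1135, 965 and 1529 CPM in the Gata5-/- libraries. The groups covered nearly the same range, and the log2 fold change of the Gata5-/- group against wildtype was -0.06 (SE 0.260, adjusted p = 0.9997 by edgeR). Atp5f1a, the alpha subunit, and Atp5f1c, the rotating gamma subunit, had 0.03 (SE 0.249) and 0.31 (SE 0.241). Atp5if1, the inhibitor that blocks ATP breakdown by the enzyme when the membrane potential falls, was at 74.9, 56.7, 99.8 and 102 CPM in wildtype and at 56.1, 84.6, 118 and 134 CPM in the Gata5-/- libraries, a log2 fold change of 0.24 (SE 0.252).

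Atp5mc2 encodes the c subunit of the membrane rotor, as Atp5mc1 and Atp5mc3 do. It was at 24.3, 33.2, 31.6 and 33.2 CPM in wildtype, at 28.8, 27.8, 25 and 35.6 CPM in the Gata5+/- libraries and at 47.8, 33.5, 38.3 and 38.8 CPM in the Gata5-/- libraries. Every Gata5-/- library was above every wildtype library, by a narrow margin for replicate 2, while replicate 4 of the Gata5+/- group lay within the Gata5-/- range. The log2 fold change was 0.37 against wildtype (SE 0.195, unadjusted p = 0.0669, adjusted p = 0.994 by edgeR) and 0.43 against Gata5+/- libraries (SE 0.195, unadjusted p = 0.0356, adjusted p = 1 by edgeR). The c-subunit proteins of the 3 genes are near-identical when mature, and how the counting treated reads shared among them is not given in the sources used here. Atp5me, a small membrane subunit, was at 64.8, 41.1, 75.8 and 61.0 CPM in wildtype and at 26.4, 60.0, 57.1 and 59.6 CPM in the Gata5-/- libraries, with replicate 1 of the latter far below the rest. It had the smallest p of complex V for Gata5+/- libraries against wildtype, where its log2 fold change was -0.16 (SE 0.241, adjusted p = 1 by edgeR).

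The 85 genes varied together from library to library more than between genotypes. Their summed level was 10819, 6671, 14577 and 12682 CPM in wildtype replicates 1 to 4. It was 8459, 11612, 9270 and 14645 CPM in the Gata5+/- libraries and 9383, 11972, 11450 and 14389 CPM in the Gata5-/- libraries. The means were 11187 ± 3379, 10996 ± 2775 and 11798 ± 2057 CPM (SD, n = 4), so the groups differed by less than their SDs, while the highest library held 2.195 times the level of the lowest. Wildtype replicate 2 was the lowest wildtype library for 80 of 85 genes (94.1%, against 35.01% of all genes), and wildtype replicate 3 the highest for 68 (80.0%, against 23.9%). In the Gata5+/- group replicate 4 was the highest for 70 genes (82.4%, against 27.7%), and replicates 1 and 3 were the lowest for 41 and 37. In the Gata5-/- group replicate 1 was the lowest for 60 (70.6%, against 26.4%) and replicate 4 the highest for 51 (60.0%, against 26.5%). Replicate 3 of that group was lowest for 20 (23.5%, against 37.99% of all genes) and highest for 17 of the 85 (against 24.8% of all genes).

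**Figure D3:**
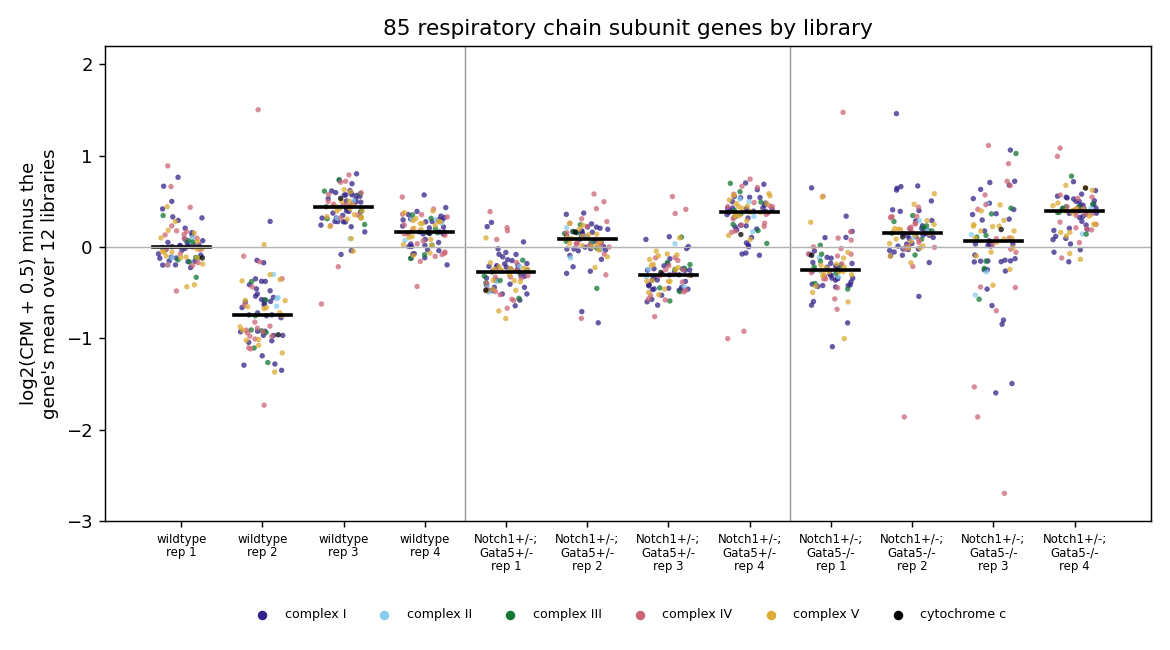
Each point is 1 of the 85 subunit genes in 1 of the 12 libraries, plotted as log2(CPM + 0.5) minus the gene's mean over 12 libraries (vertical axis) and coloured by complex; black bars are the library medians. The medians run from -0.75 in wildtype replicate 2 to 0.44 in wildtype replicate 3, and the points of Gata5-/- replicate 3 spread the widest.

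The complexes kept nearly fixed shares of this RNA. Complex I held 26.0% to 27.7% of the summed CPM, complex II 6.53% to 8.25%, complex III 9.44% to 10.7% and complex IV 17.8% to 20.8% over the 12 libraries. After each group's mean was taken out, each gene was correlated with the median of the other subunit genes over 12 libraries. The median correlation was 0.88, given as a description, since the libraries share scaling and the genes share cells. The correlation exceeded 0.7 for 68 of 85 genes, and Cox7c (0.99), Atp5mk (0.98) and Ndufa9 (0.98) were the closest to the rest. The 7 lowest of the other 17 were Cox6b2 (-0.28), Cox4i2 (-0.12), Atp5mc2 (0.005), Cox6a1 (0.29), Ndufa4l2 (0.35), Ndufb1 (0.37) and Ndufb2 (0.41). The remaining 10 had values from 0.47 to 0.69, and 5 of them had mean levels of at least 50 CPM: Atp5mg (0.56), Ndufa2 (0.59), Ndufa3 (0.62), Cox7a2l (0.67) and Ndufb7 (0.68). The first principal component of the 85 genes held 48.1% of their variance.

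The heart muscle markers moved with the subunit genes. The marker sum was 53963, 28564, 62836 and 56729 CPM in wildtype replicates 1 to 4, 35443, 58943, 60066 and 69397 CPM in the Gata5+/- libraries and 48597, 60005, 47121 and 67657 CPM in the Gata5-/- libraries. The libraries low in one sum, wildtype replicate 2 and Gata5+/- replicate 1, were low in the other, and Gata5+/- replicate 3 was the exception, with 6.48 times as much marker RNA as subunit RNA against 4.12 to 5.18 times elsewhere. Within groups, 52 of 85 subunit genes (61.2%) had a correlation above 0.7 with the marker level, compared with 4.55% of all genes tested. Without wildtype replicate 2 and Gata5+/- replicate 1, the shares were 42.4% and 2.68%. The part of heart muscle in the values of the subunit genes was not tested beyond the covariate given above. Skeletal muscle markers (5 of 12 tested) summed to 0.0 to 8.57 CPM. Atrial markers summed to 615.9 to 1232 CPM, and brown fat markers to 397 to 592 CPM (11 of 12 tested). The defining gene Ucp1, and also Otop1, Plin1, Adipoq and Cidec, had 0 counts in some libraries, so this sum does not mark brown fat.

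**Figure D4:**
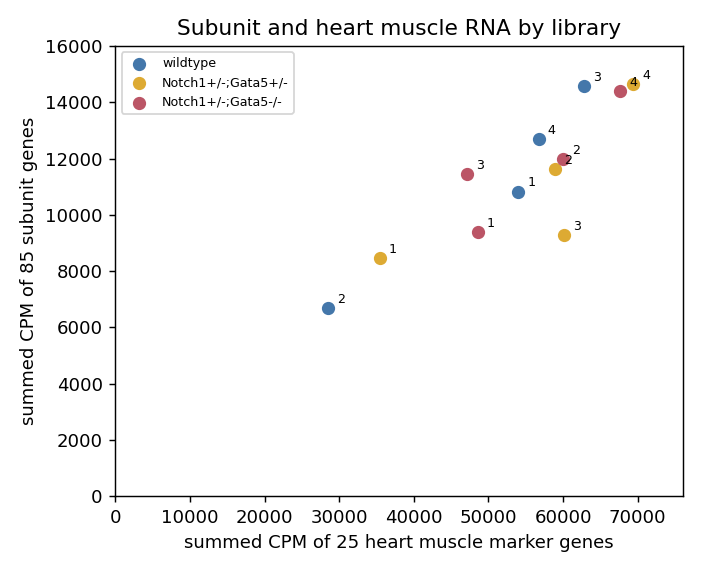
Summed CPM of the 85 subunit genes (vertical axis) against summed CPM of 25 heart muscle marker genes (horizontal axis), a point per library with its replicate number and coloured by genotype. Wildtype replicate 2 lies lowest on both axes (28564 and 6671 CPM) and Gata5+/- replicate 4 highest (69397 and 14645 CPM), with the 3 genotypes interleaved.

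Whether the paired genes follow these markers was asked for 6 ratios and 3 marker lists over 12 libraries, 18 relations in all, by permutation. The Cox8b to Cox8a ratio had, with heart muscle markers, Pearson's r of 0.72 (permutation p = 0.0065, adjusted p = 0.0824) and Spearman's rho of 0.68 (permutation p = 0.0186, adjusted p = 0.167). It was 0.80 within groups and 0.48 without wildtype replicate 2 and Gata5+/- replicate 1, so it rested in part on those libraries. With brown fat markers the same ratio had r = 0.68 (permutation p = 0.0183, adjusted p = 0.110) and rho = 0.64 (permutation p = 0.0297, adjusted p = 0.178), and r was 0.66 without the 2 libraries farthest from the median. The Cox4i2 to Cox4i1 ratio had r = -0.72 with brown fat markers (permutation p = 0.00916, adjusted p = 0.0824) and rho = -0.72 (permutation p = 0.00978, adjusted p = 0.167), and r was -0.61 without the 2 libraries farthest from the median. With heart muscle markers, the Cox7a1 to Cox7a2 ratio had r = 0.26 (permutation p = 0.406, adjusted p = 0.914). That r was 0.51 within groups and 0.71 without wildtype replicate 2 and Gata5+/- replicate 1. The Cox6a2 to Cox6a1 ratio had r = 0.20 with these markers (permutation p = 0.504, adjusted p = 0.976) and -0.39 without the same libraries. None of the 18 relations passed after adjustment. The brown fat list also holds Ppargc1a, a regulator of mitochondrial biogenesis, so relations to its sum are not relations to brown fat alone.

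Subunits encoded in mitochondrial DNA were measured for 7 of 13 genes, and all 7 had positive log2 fold changes in each comparison without any being called. Their medians were 0.445 for Gata5-/- libraries against wildtype, 0.16 for Gata5+/- libraries against wildtype and 0.24 between the mutant groups. ND1, a complex I core subunit, had the smallest p, with 0.47 (SE 0.243, unadjusted p = 0.0753, adjusted p = 0.9997 by edgeR) for the first. Their summed CPM divided by that of the 85 nuclear genes was 1.07, 1.13, 1.05 and 1.38 in wildtype, 1.21, 1.343, 1.44 and 1.33 in the Gata5+/- libraries and 1.41, 1.49, 1.14 and 1.64 in the Gata5-/- libraries. The means were 1.16 ± 0.152, 1.33 ± 0.0947 and 1.42 ± 0.208 (SD, n = 4), with overlap among all 3 groups, and this ratio was given no test. Messenger RNA was selected by its poly-A tail, and mitochondrial transcripts carry short tails, so the level of these genes also depends on that selection.

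Genes that build or regulate the complexes were counted from lists, and none was called in any comparison. For Gata5-/- libraries against wildtype, complex I assembly factors were positive for 8 of 17 with a median log2 fold change of -0.11, and complex IV assembly factors for 14 of 23 with 0.10. Complex II assembly factors were positive for 4 of 4 with 0.485, led by Sdhaf4, which helps mature the flavoprotein, at 0.69 (SE 0.400, adjusted p = 0.9997 by edgeR). Their summed level was 52.59, 52.78, 98.65 and 54.19 CPM in Gata5-/- replicates 1 to 4, against 42.24 to 58.9 CPM in wildtype. Only replicate 3, the library with 6000 genes at 0, lay above the wildtype range. Complex III assembly factors were positive for 3 of 9 and complex V assembly factors for 3 of 5. Regulators of mitochondrial biogenesis were positive for 9 of 18 with a median of 0.003, genes of the citric acid cycle for 13 of 17 with 0.10, and genes of ATP export for 4 of 8. Pet100, a complex IV assembly factor, was the only gene of these lists with an unadjusted p under 0.05 in that comparison, with 0.65 (SE 0.308, unadjusted p = 0.0463, adjusted p = 0.909 by edgeR). Cyc1 and Ndufab1, subunits that the choice by name left out, had log2 fold changes of 0.10 and -0.11 in the same comparison.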

How the data were processed

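Messenger RNA was measured in 12 libraries (3 genotypes, 4 pools each). Per the labels' protocols, RNA was selected by poly-A. Per the submitters' processing notes, reads were trimmed with Trim Galore, aligned with STAR 2.7.10b to GRCm39 and analysed with DESeq2 1.34.0. The counting tool and annotation release were not given in the sources used here. Labels describe both stranded and unstranded preparation without saying which was used, and 29 of the 85 genes overlap an exon on the opposite strand, so some counts may belong to a neighbour. Deposited counts are raw whole numbers per gene and library. The authors' deposited table of 13959 genes holds DESeq2 output, per the file headers: a mean signal, a log2 fold change, a standard error and a Wald score, and p-values. Its comparison is not named, and its lowest mean signal was 20.0, so genes under some minimum were outside the choice of members.

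In R 4.3.3, edgeR 4.0.16 kept 19346 genes by filterByExpr (1274 removed), scaled them by TMM and fitted a robust quasi-likelihood model with 1 coefficient per genotype to the 12 libraries. Benjamini-Hochberg adjustment ran over all genes tested, with calls under 0.05. The calling was tested on simulated data. Levels are TMM-scaled CPM. Transcript lengths come from a GRCm38 annotation, and promoter windows from RefSeq (GRCm38.p6). Alternatives were other normalizations and filters, DESeq2 1.42.0, limma-voom (limma 3.58.1), a fit to 8 libraries, leaving out single libraries or both that stand apart, a replicate block, a heart muscle covariate and other pseudocounts for ratios. The members, gene lists and tests were chosen with earlier results of these data known. The genes named are core subunits with the inhibitor Atp5if1, the paired genes and, per complex and comparison, the gene with the smallest p, some by their fold change alone.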

Additional observations from a re-analysis of the deposited data

Results flagged for a closer look

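Among 138 groups of 4 values of the 40 named genes and the 6 ratios, 4 held a library far from the other 3 (gap to the nearest value over 0.829 of the range), where chance gives about 1 in 20. Ndufs7 was low in wildtype replicate 2, at 9.29 CPM against 18.1 to 19.2 CPM in the other wildtype libraries, and that library was low for most subunit genes. Ndufs8 was low in Gata5-/- replicate 1, at 25.1 CPM against 49.4 to 53.4 CPM, and Atp5me in the same library, at 26.4 CPM against 57.1 to 60.0 CPM. The log2 ratio of Cox6b2 to Cox6b1 was -8.55 in Gata5-/- replicate 3, where Cox6b2 had 0 counts, so that value is set by the 0.5 CPM added.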

How the results depend on the processing

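The count of subunit genes called was 0 in each comparison under every setting run, and 0 (lowest and highest) with any library left out. All 2592 alternative values moved by less than the SD between libraries, but many signs changed. Of the 40 genes of the naming rule, none called, the sign for Gata5-/- libraries against wildtype changed for 17 without both libraries that stand apart, for 14 without wildtype replicate 2 and for 12 with the heart muscle covariate. For Gata5+/- libraries against wildtype it changed for 13, 13 and 11, and for 16 without wildtype replicate 3. With each library left out in turn, the median log2 fold change of the 85 genes ran from -0.085 to 0.249 for Gata5-/- libraries against wildtype, from -0.219 to 0.133 for Gata5+/- libraries against wildtype and from 0.032 to 0.275 between the mutant groups. Without wildtype replicate 2 and Gata5-/- replicate 3 together, the medians were -0.073, -0.219 and 0.146. Among other normalizations, filters and tools the sign of a median changed in 1 case, 0.024 by limma-voom for Gata5+/- libraries against wildtype. limma-voom also set the median of all genes at -0.114 between the mutant groups.

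The ratio differences ranged as follows when each library was left out, for Gata5-/- libraries against wildtype, Gata5+/- against wildtype and the mutant groups in turn. Cox7a1/Cox7a2 ran from -0.842 to -0.419, from -0.290 to -0.046 and from -0.660 to -0.237. Cox8b/Cox8a ran from -0.274 to 0.078, from -0.396 to -0.043 and from 0.029 to 0.247. Cox6a2/Cox6a1 ran from 0.119 to 1.179, from -0.336 to 0.132 and from 0.127 to 1.187. Cox4i2/Cox4i1 ran from -0.111 to 0.474, from 0.066 to 0.789 and from -0.534 to 0.189. Ndufa4l2/Ndufa4 ran from -1.609 to -0.151, from -0.284 to 0.416 and from -1.661 to -0.203. Cox6b2/Cox6b1 ran from -1.403 to 0.017, from -1.064 to 0.107 and from -0.813 to 0.562. With 3 against 4 libraries, too, a single difference at the smallest possible p could not pass the adjustment over 18 tests.

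Deviations of libraries with the same replicate number had correlations of -0.0331 to 0.0951, and those with different numbers of -0.0612 to 0.0553. Taken over all genes, these values do not decide whether the numbers pair the samples. The replicate block gave 0 calls and medians of 0.087, -0.027 and 0.1. Depth limits the low genes: with floors of 0.120 to 0.216 CPM, the ratio difference of Ndufa4l2/Ndufa4 for Gata5-/- against wildtype libraries was -1.426 with 0.1 CPM added and -0.643 with 1 CPM, and that of Cox6b2/Cox6b1 was -1.367 and -0.727.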
